A study of Canis lupus familiaris with 5 samples.

Results

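The cells described here are non-cycling pro-B cells of CD34-sorted dog bone marrow, B-lineage precursors in which no transcript of 2 proliferation genes was counted. Members were chosen by transcript counts. Barcodes of the CD34-sorted libraries with at least 200 genes and at most 10% mitochondrial transcripts were kept, and of these the members held at least 3 unique molecular identifiers (UMIs, each one captured transcript) of VPREB1, less than 0.02% of their UMIs from MPO, and 0 UMIs of MKI67 and TOP2A together. The limits gave 1820 members among 8485 kept sorted cells, and 24708 cells were kept in the whole series. CD34-sorted library 1 held 1244 members of 4720 cells (26.4%, exact binomial 95% interval 25.1% to 27.6%) and library 2 held 576 of 3765 (15.3%, 14.2% to 16.5%). VPREB1, MPO, MKI67 and TOP2A were selected on, so their levels and every contrast those limits fix are given as descriptions with no test.

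The study profiled femoral marrow of 3 dogs of genotype Wt, all primary tissue, with droplet-based 3' RNA sequencing, which reads the end of each transcript. Marrow was flushed from the bone, red cells were lysed, and 1 unsorted library was made from each of marrows 1, 2 and 3. Viable CD34+ cells, those excluding propidium iodide, were sorted by flow cytometry from marrows 2 and 3 and gave CD34-sorted libraries 1 and 2. The order in which the sorted libraries belong to marrows 2 and 3 was taken from the leading digits of the library names, and the labels give no treatment, age or breed. All groups share the storage of femurs on ice, the flushing and the lysis.

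Pro-B cells are the stage at which the immunoglobulin heavy chain gene is assembled. The transcription factors EBF1 and PAX5 commit a lymphoid progenitor to the B lineage, the RAG1 and RAG2 recombinase cuts the gene segments, and terminal transferase, the product of DNTT, adds bases at the joints. VPREB1 forms part of the surrogate light chain that tests the new heavy chain. Interleukin-7 receptor signalling drives division at this stage in the mouse, and recombination is known to take place mainly outside S phase.

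Total UMIs per library were between 46114431 and 70169186. The median kept cell held 11622 and 14623 UMIs in sorted libraries 1 and 2, whereas the median member held 2399 and 3076. Members therefore lay at the low end of their libraries in transcript number. Their median mitochondrial share was 6.10% and 7.81%, against 6.12% and 7.83% over all kept cells. Pairs of libraries shared between 4 and 12 cell barcodes. Counts of both sorted libraries differed far beyond sampling noise, with a chi-square per degree of freedom of 11.4 over 8517 genes.

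Levels of the markers were set beside the label. The marker list was chosen with earlier results of these data known, so this is a description and no independent check. Levels are counts per 1000000 UMIs of the summed cells (CPM). DNTT was at 2423 and 2696 CPM in members of sorted libraries 1 and 2, PAX5 at 589 and 380, RAG1 at 118 and 79.3, and AKAP12, which encodes a kinase-anchoring scaffold protein, at 1127 and 2032. The other kept cells of the same libraries held 439 and 500.3 CPM of DNTT and 77.3 and 61.5 of PAX5. RAG1 stood at 5.31 and 2.68 CPM there and AKAP12 at 97.98 and 165, so all 4 markers were higher in the summed members in both libraries. Members of at least 8000 UMIs, described below, stood nearer to the other cells, with PAX5 at 139 and 98.1 CPM and AKAP12 at 134 and 197. Thinned to 1000 UMIs, 1.57% and 1.03% of them held RAG1, so the markers bear out the label less well there. MPO-high cells, neutrophil progenitors with at least 0.5% of UMIs from MPO, served as cells of another lineage for comparison. Whether marker counts in them come from free transcripts, doublets or their own expression was not tested. With every cell thinned to 2000 UMIs, RAG1 was found in 20.2% and 17.5% of members, and in 0 of 145 and 0 of 112 MPO-high cells, which allows up to 2.07% and 2.68%. PAX5 was found in 53.7% and 51.0% of thinned members, and in 0 of 145 and 1 of 112 MPO-high cells. AKAP12 was found in 62.9% and 79.1% of thinned members against 3 of 145 and 0 of 112 MPO-high cells, the latter allowing up to 2.68%. DNTT was more frequent in MPO-high cells than the other markers were. It was found in 92.9% and 91.6% of thinned members and in 10.3% and 16.1% of thinned MPO-high cells, or 72.4% and 64.3% before thinning. Thinning left out 438 and 74 shallower members. Before thinning, RAG1 was found in 34.9% and 25.5% of members at median depths of 2399 and 3076 UMIs, against 1.38% and 0% of MPO-high cells at 28283 and 32077. VPREB1 itself reached 3 UMIs in 4.83% and 6.25% of MPO-high cells. The median member held 20 and 29 VPREB1 UMIs.

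By the rule for naming genes, the 20 genes with at least 50 CPM that led members over the other sorted cells included RAG1, ADGRF1, AKAP12, IGF1, FOXO1, MRC1, LAMA4, TPM2, JCHAIN, MARCKS, TARS3, HIVEP2, PAX5, EBF1, DPEP1, DCK, DNTT, NPNT and PLAC8. They include the recombinase gene and B-lineage transcription factors. They also include genes of matrix and membrane proteins, such as the laminin chain LAMA4, the mannose receptor MRC1 and nephronectin, NPNT. LAMA4 was at 104 and 165 CPM in members against 12.6 and 15.5 in the other sorted cells. MRC1 was at 105 and 147 CPM against 10.4 and 17.9. CD79A, a B-cell receptor subunit, did not separate members from other cells. It stood at 11561 and 10464 CPM in members and at 9480 and 9893 in MPO-high cells. In the RefSeq table of assembly UU_Cfam_GSD_1.0, which is not the build of the files, CD79A lies beside the ribosomal protein gene RPS19 and a long non-coding RNA gene; the part of these neighbours in its counts was not tested.

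Cells near the limits resembled members to differing degrees. Cells just inside the VPREB1 limit, with 3 or 4 UMIs, numbered 27 and 15, held a median of 11149 and 15156 UMIs, and had PAX5 at 27.6 and 8.01 CPM. Cells just outside, with 1 or 2 VPREB1 UMIs, numbered 326 and 312 and had PAX5 at 0.446 and 2.56 CPM. A cell of under 5000 UMIs with a single MPO UMI exceeds the MPO limit. The 46 and 34 cells with an MPO share from 0.02% to 0.05% were outside for that reason or by their MPO level. They held a median of 2752.5 and 2962.5 UMIs, with PAX5 at 1014 and 433 CPM and RAG1 at 231 and 124. These levels were above those summed over all members. They were below members of 2000 to 4000 UMIs, which had PAX5 at 1168 and 716 CPM and RAG1 at 243 and 162. Cells with 1 or 2 UMIs of MKI67 and TOP2A numbered 218 and 156 and held a median of 8768.5 and 6233 UMIs. Their RAG1 stood at 42.3 and 30.4 CPM, below that summed over all members. It lay between members of 4000 to 8000 UMIs, at 48.9 and 58.5 CPM, and those of 8000 to 16000, at 24.5 and 11.96. RAG1 of these cells and members at equal depth was not tested.

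Members fell into 2 ranges of transcript number in both libraries. In sorted library 1, 868 of 1244 members (69.8%) held at most 4000 UMIs and 255 (20.5%) held at least 8000. In sorted library 2, 402 of 576 (69.8%) held at most 4000 and 97 (16.8%) at least 8000. The remaining 121 and 77 members lay between. These bounds were chosen after the distribution was seen, and what follows on the low-UMI members (at most 4000) and high-UMI members (at least 8000) is a description with no test. Doublets called from simulated pairs made up 9.02% and 7.22% of high-UMI members and 0.230% and 0% of low-UMI members, the latter 0 of 402. A low-UMI cell meets the limit of 0 MKI67 and TOP2A UMIs more easily and needs a higher share of VPREB1 to reach 3 UMIs. A single MPO UMI excludes a cell of under 5000 UMIs, and members with an MPO UMI held a median of 11473 and 13013 UMIs. The genes of the limits were therefore not compared between the ranges. Across members thinned to 2000 UMIs, the Spearman correlation of VPREB1 was 0.52 and 0.25 with PAX5 and 0.56 and 0.47 with AKAP12. How far the limits set the differences below was not tested.

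**Figure D1:**
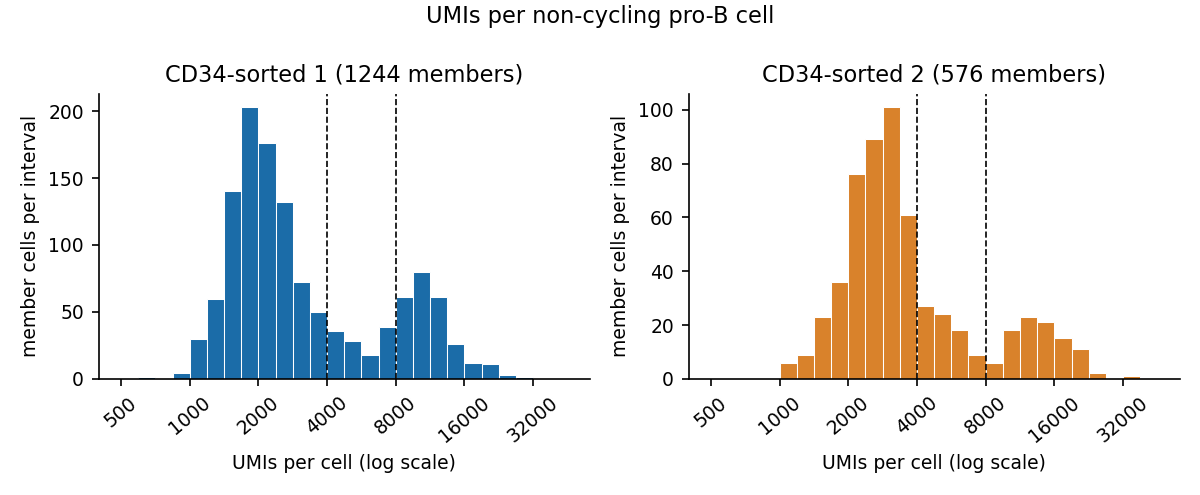
Number of member cells (vertical axis) by UMIs per cell (horizontal axis, log scale) in CD34-sorted libraries 1 and 2; each bar is an interval of UMIs and dashed lines mark 4000 and 8000 UMIs. Both libraries show a main peak below 4000 UMIs, with 868 and 402 members, and a second one above 8000, with 255 and 97.

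The ranges differed in the levels of B-lineage genes. Low-UMI members carried high RAG1, PAX5, EBF1, FOXO1 and AKAP12, and high-UMI members carried more CD34, IL7R and KIT. RAG1 was at 299 and 176 CPM in low-UMI members of libraries 1 and 2 and at 24.5 and 12.8 in high-UMI members. RAG2, the partner of RAG1 in the recombinase, was at 82.6 and 70.9 CPM against 11.6 and 5.69. DNTT was present in both ranges, at 3729 and 4337 CPM against 1696 and 1523. Both recombinase genes and DNTT were thus higher in low-UMI members of each library, and DNTT differed least. Of the 12 tested genes of V(D)J recombination and end joining, these 3 were at least 2-fold higher in low-UMI members in both libraries and none was lower. Over all 4401 genes with enough counts, 415 (9.43%) met that criterion upward and 202 (4.59%) downward. These shares are the ones to set beside each later gene list of this contrast. The repair genes of the list, such as PRKDC, the catalytic subunit of the DNA-dependent protein kinase, were alike by this criterion, with PRKDC at 54.9 and 49.2 CPM in low-UMI and 62.5 and 60.4 in high-UMI members.

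Depth was made equal by thinning every member to 1000 UMIs. RAG1 was then found in 222 of 863 low-UMI members of library 1 (25.7%, exact binomial 95% interval 22.8% to 28.8%) and in 4 of 255 high-UMI members (1.57%, 0.429% to 3.97%). In library 2 it was found in 54 of 402 (13.4%, 10.3% to 17.2%) and 1 of 97 (1.03%, 0.0261% to 5.61%). AKAP12 was found in 80.2% and 87.1% of low-UMI and 7.84% and 14.4% of high-UMI members. CD34 went the other way, with 25.4% and 18.4% of low-UMI members against 52.5% and 39.2% of high-UMI members. The intervals cover counting error only, and 5 low-UMI members of library 1 under 1000 UMIs were left out. Thinning does not undo the limits, which were applied at full depth.

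The B-lineage transcription factors were higher in the low-UMI range as a list. Of 20 tested, 13 were at least 2-fold higher in low-UMI members in both libraries and none was lower, with a median log2 fold of 1.71 against 0.29 over all genes. PAX5, which commits cells to the B lineage, was at 1236 and 724 CPM in low-UMI and 139 and 98.1 in high-UMI members. EBF1, which acts with PAX5, was at 231 and 301 CPM against 69.1 and 49.0. FOXO1, a factor upstream of the recombinase genes in the mouse, was at 440 and 542 CPM against 35.4 and 38.4. The repressor gene BACH2 was at 82.1 and 71.8 CPM against 12.6 and 9.24. IKZF1, encoding Ikaros, was similar in both ranges, at 194 and 216 CPM against 181 and 144. IRF4, a transcription factor of later B-cell stages, was low throughout, at 7.61 and 9.45 CPM against 1.32 and 19.2.

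**Figure D2:**
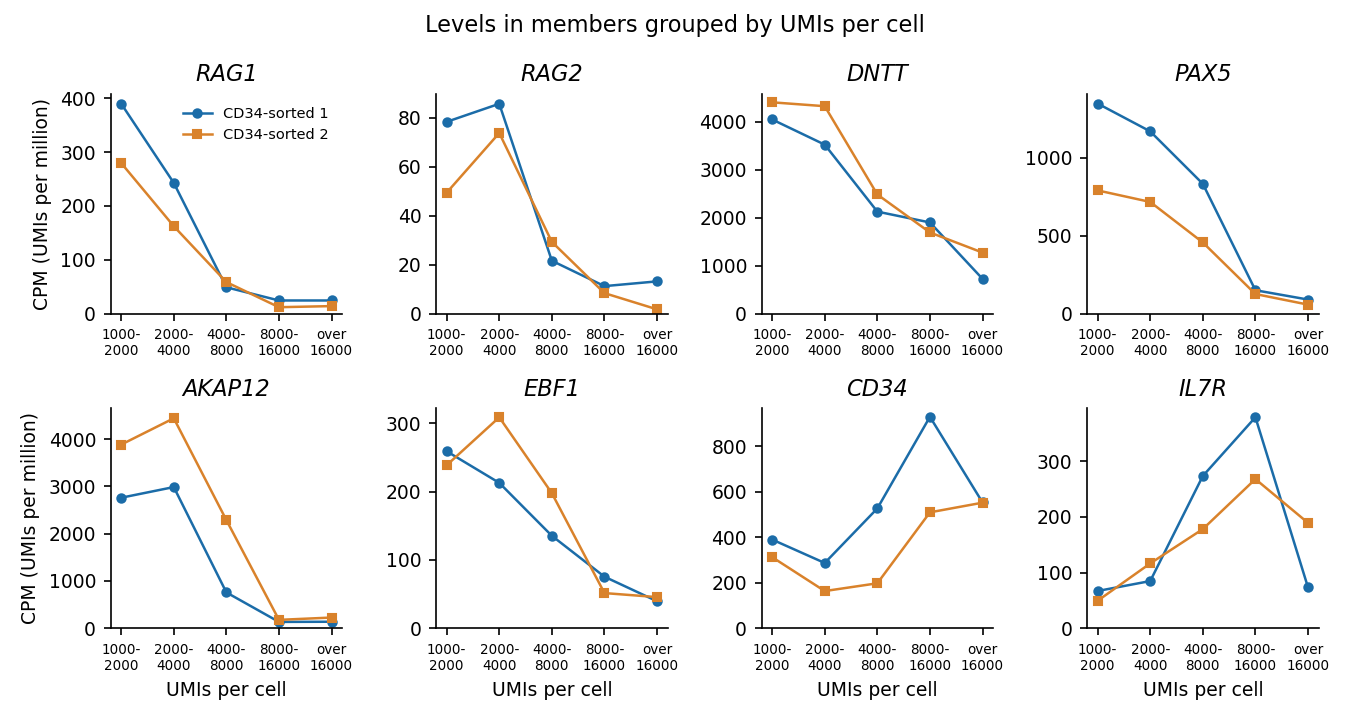
CPM (vertical axis, from 0) of 8 genes in members grouped by UMIs per cell (horizontal axis) in CD34-sorted libraries 1 (circles) and 2 (squares); each point is the sum over the cells of 1 range, lines join ranges of a library, and 5 members under 1000 UMIs are not drawn. RAG1, RAG2, DNTT, PAX5, AKAP12 and EBF1 are lower in ranges above 8000 UMIs than in those below 4000, and CD34 is higher there.

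Genes of the pre-B receptor and its signalling were present in both ranges. Of 10 tested, 3 were at least 2-fold higher in low-UMI members in both libraries, IGHM and SYK among them, and none was lower. IGHM, the mu heavy chain gene, was at 583 and 682 CPM in low-UMI and 249 and 250 in high-UMI members. SYK, a kinase of the receptor, was at 483 and 479 CPM against 188 and 160. BLNK, an adaptor that links the receptor to its kinases, was at 628 and 452 CPM against 362 and 206. CD79B, the partner of CD79A, was low in both, at 11.4 and 12.3 CPM against 0.661 and 1.42.

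Receptors and adhesion genes separated the ranges in both directions. CD34 was at 326 and 181 CPM in low-UMI members of libraries 1 and 2 and at 863 and 527 in high-UMI members. IL7R, the interleukin-7 receptor, was at 77.7 and 109 CPM against 325 and 236, and KIT, the stem cell factor receptor, was at 2.72 and 1.89 against 42.0 and 38.4. Of 5 tested cytokine receptors, 3 (IL7R, FLT3 and KIT) were at least 2-fold lower in low-UMI members in both libraries. FLT3, a receptor of early lymphoid progenitors, was at 15.2 and 9.45 CPM against 55.5 and 48.3. The chemokine receptor CXCR4, which holds precursors in the marrow niche, was higher in low-UMI members, at 660 and 786 CPM against 247 and 287. The adhesion genes CD44 and ITGA4 were lower there, CD44 at 3.26 and 2.84 CPM against 94.2 and 48.3.

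MHC class II genes, which encode antigen presentation molecules, were higher in low-UMI members: 6 of 8 tested genes were at least 2-fold higher in both libraries, none was lower, and the median log2 fold was 2.55. DLA-DRA, the canine class II alpha chain, was at 1993 and 1213 CPM against 215 and 237. CIITA, the transactivator of these genes, was at 46.7 and 37.8 CPM against 5.62 and 5.69. CD74, the invariant chain, was at 765 and 599 CPM against 85.6 and 137.

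Growth and division genes were also divided by range. Of 21 tested DNA replication genes, 14 were at least 2-fold lower in low-UMI members in both libraries and none was higher, with a median log2 fold of -1.16. PCNA, the sliding clamp of the replication fork, was at 19.6 and 14.2 CPM in low-UMI and 47.9 and 37.7 in high-UMI members. CCND2, a D-type cyclin of G1, was at 0 and 0.945 CPM against 69.4 and 80.3, while CCND3 was at 32.6 and 34.97 against 8.92 and 14.2. MYC was at 11.96 and 4.73 CPM against 53.5 and 70.4. The antiproliferative genes BTG1 and BTG2 and the cell cycle inhibitor CDKN1B were each higher in low-UMI members, BTG1 at 129 and 82.2 CPM against 25.5 and 12.8. Of 6 tested apoptosis genes, 3 were at least 2-fold higher in low-UMI members in both libraries (BCL2L1, MCL1 and BCL2L11). BCL2 was lower, at 8.15 and 10.4 CPM against 27.4 and 46.9. The median log2 fold of the apoptosis genes was 0.58 against 0.29 over all genes.

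Some genes that mark the members were shared by both ranges. DPEP1, a membrane dipeptidase gene, was at 894 and 1077 CPM in low-UMI and 677 and 588 in high-UMI members. ASNS, asparagine synthetase, was at 1373 and 903 CPM against 987 and 702. Neither reached 2-fold in both libraries. By the rule, the genes furthest above the high-UMI range in low-UMI members were CNTNAP5, IGF1, MTA3, AKAP12, ACTC1, ALDH3A1, TPM2, CD72, ACKR4 and ADGRF1. IGF1, insulin-like growth factor 1, was at 207 and 178 CPM in low-UMI and 8.26 and 6.40 in high-UMI members. Those furthest below were CCND2, ADGRG1, TXLNB, TFPI, RARRES2, SLA, APOC1, CD7, ST7 and CD44. ADGRG1, an adhesion receptor of stem and progenitor cells, was at 1.63 and 0.945 CPM in low-UMI and 106 and 81.7 in high-UMI members.

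Cycling pro-B cells, with at least 3 UMIs of MKI67 and TOP2A and otherwise the same limits, numbered 585 and 792, with a median of 9429 and 9405 UMIs. The contrast with members is fixed by the rule. Of 4358 genes, 77 (1.77%) were at least 2-fold higher in members in both libraries and 298 (6.84%) at least 2-fold lower. All 26 tested G2 and mitosis genes were lower in members, and 14 of 25 DNA replication genes were. The 10 leading genes on the lower side were ASPM, CKAP2L, GTSE1, NUSAP1, NUF2, UBE2C, KIF23, PRC1, H1-5 and DLGAP5. ASPM, NUF2 and PRC1 act in the mitotic spindle, and UBE2C in the breakdown of mitotic proteins. ASPM was at 5.57 CPM in members of each library and at 681 and 851 in cycling cells. Because the limit on MKI67 and TOP2A separates these cells, the lower levels of other mitotic genes are not independent of it.

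On the higher side, the leading genes were IGF1, MTA3, ADGRF1, DLA-DQA1, RAG1, ARID5B, SLC14A1, DEPP1, HLA-DQB2 and AOX2. RAG1 was at 118 and 79.3 CPM in members and 21.4 and 6.90 in cycling cells. RAG2 was at 36.3 and 33.0 CPM against 19.3 and 10.5. IGF1 was at 73.0 and 69.9 CPM against 1.96 and 2.11. MHC class II genes were higher in members for 7 of 8 tested, with DLA-DRA at 828 and 665 CPM against 201 and 255. By the levels given above, high-UMI members alone lay near cycling cells in DLA-DRA. Their RAG2 was below that of cycling cells in both libraries. Only 2 of 19 transcription factors, BACH2 and ARID5B, were at least 2-fold higher, and PAX5 stood at 589 and 380 CPM against 458 and 289. Pre-B receptor genes gave 0 of 10 in either direction. CD34 was at 643 and 352 CPM in members against 434 and 121 in cycling cells. Summed levels weight deep cells: high-UMI members gave 3025457 of 5560544 member UMIs in library 1 and 1406787 of 2874643 in library 2. In low-UMI members CD34 was at 326 and 181 CPM, below cycling cells in library 1 and above them in library 2.

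Each range of members differed from the cycling cells in its own way. High-UMI members were above cycling cells in CCND2, C20H19orf38, CD2, TXLNB, ABCA1, ADGRG1, CD44, RARRES2, SLA and CD96, the 10 leading genes by the rule. CD2 was at 149 and 110 CPM in high-UMI members and 35.3 and 14.4 in cycling cells. For RAG1, high-UMI members at 24.5 and 12.8 CPM stood next to cycling cells at 21.4 and 6.90, and low-UMI members were apart at 299 and 176. For PAX5, cycling cells at 458 and 289 CPM lay between the high-UMI members at 139 and 98.1 and the low-UMI members at 1236 and 724.

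Cells with 0 VPREB1 UMIs, at least 3 DNTT UMIs and otherwise the same limits served as the nearest VPREB1-negative cells, 419 and 328 of them with a median of 12598 and 14968 UMIs. Of 4242 genes, 289 (6.81%) were at least 2-fold higher in members in both libraries and 152 (3.58%) lower, a contrast again fixed by the rule. The leading genes of members were AKAP12, PAX5, TPM2, LAMA4, RAG1, MRC1, ADGRF1, VPREB3, POU2AF1 and FBLN1. AKAP12 was at 2.38 and 3.14 CPM in the VPREB1-negative cells and PAX5 at 2.38 and 1.77. RAG1 was at 0.366 and 0 CPM there. Of 19 tested transcription factors, 11 were higher in members and none was lower. ASNS was at 1181 and 831 CPM in members and 64.7 and 67.8 in VPREB1-negative cells, and PSAT1, an enzyme of serine synthesis, was at 237 and 90.4 against 17.4 and 3.34. Of 6 tested amino acid and stress response genes, 3 were higher in members (ASNS, PSAT1 and DDIT4) and none was lower. Their median log2 fold was 1.15 against 0.19 over all genes. TRIB3 and SESN2, other targets of the amino acid response, had at most 0.180 CPM in members and were not among the tested genes.

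Genes lower in members than in VPREB1-negative cells were led by APOC1, TFPI, TFEC, NLRP3, PGLYRP2, PTPRE, RBP7, MGST1, PMP22 and ST7. TFPI, an inhibitor of blood clotting, was at 17.1 and 18.4 CPM in members and 144 and 148 in the VPREB1-negative cells. Of 12 tested stem and progenitor genes, 6 were lower in members (MLLT3, ADGRG1, EGFL7, NRIP1, TFPI and TAL1) and DPEP1 was higher. High-UMI members held intermediate levels of several of these genes. ADGRG1 was at 174 and 164 CPM in VPREB1-negative cells, 106 and 81.7 in high-UMI members and 1.63 and 0.945 in low-UMI members. EBF1 followed the opposite order, at 2.38 and 1.77, then 69.1 and 49.0, then 231 and 301 CPM. IL7R was highest in the middle of that order, at 29.6 and 24.0 CPM in VPREB1-negative cells and 325 and 236 in high-UMI members.

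**Figure D3:**
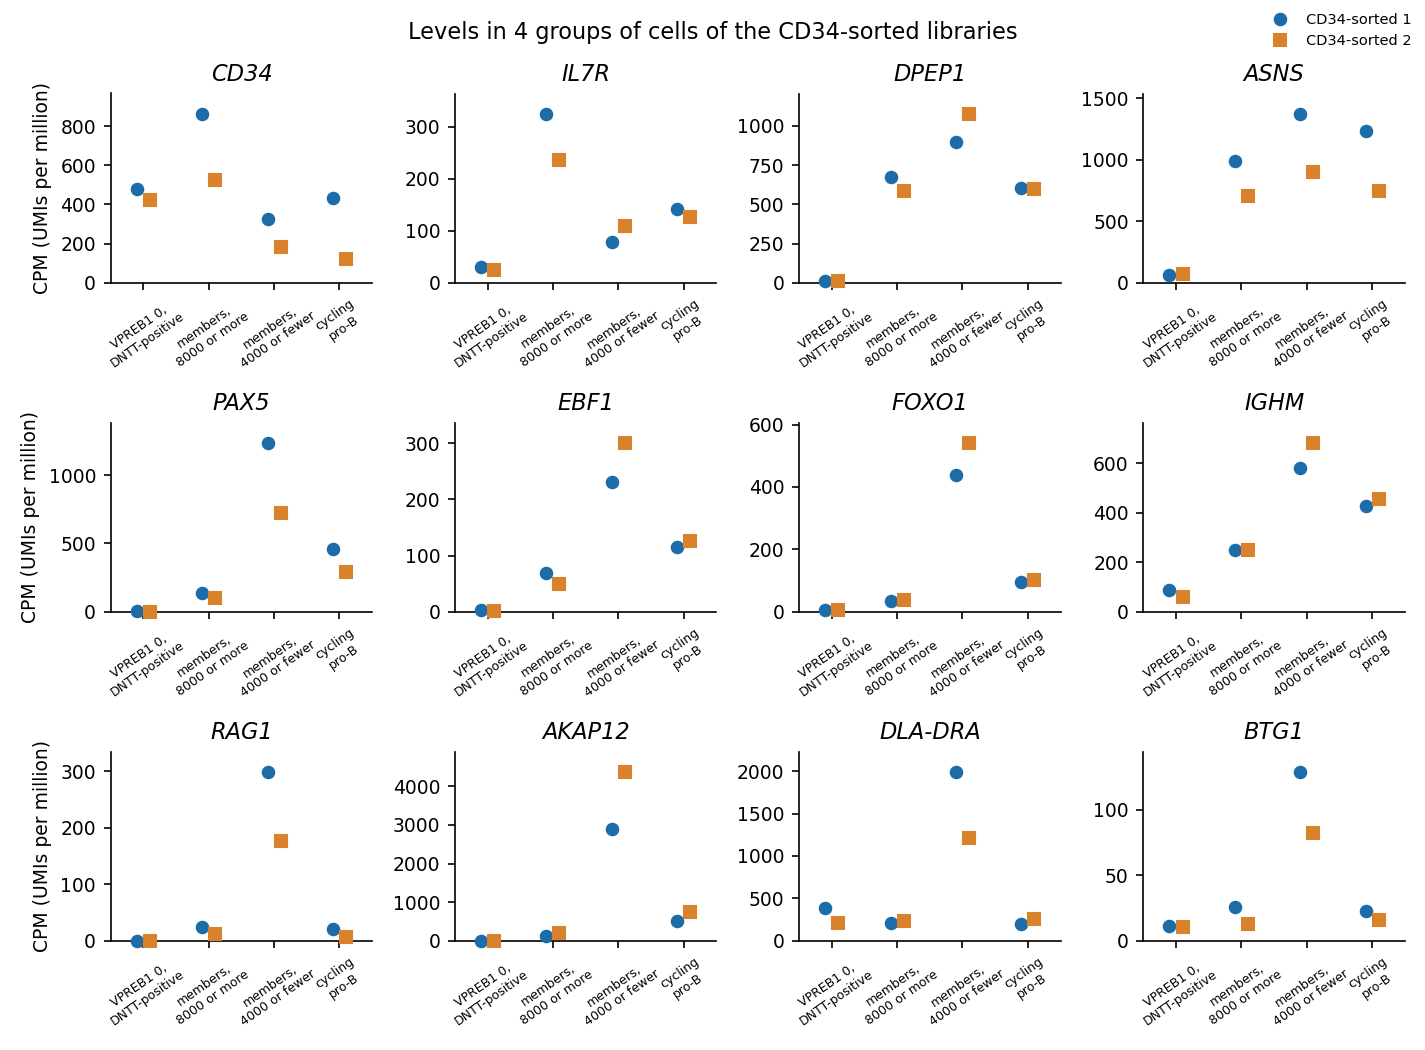
CPM (vertical axis, from 0) of 12 genes in VPREB1-negative DNTT-positive cells, members of at least 8000 UMIs, members of at most 4000 UMIs and cycling pro-B cells; each point is 1 CD34-sorted library (circles library 1, squares library 2). DPEP1 and ASNS are high in both ranges of members and in cycling cells, while RAG1, AKAP12, FOXO1, DLA-DRA and BTG1 are highest in members of at most 4000 UMIs.

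A CD34 UMI was counted in 678 of 1244 members (54.5%) and 257 of 576 (44.6%). A CD34 UMI is found more often in deeper cells, and the split is a description. Members with a CD34 UMI had PAX5 at 377 and 214 CPM and those without at 1229 and 649. ARPP21 was at 17.5 and 7.86 CPM against 75.8 and 27.4, and FBLN1, a matrix protein gene, at 69.5 and 84.2 against 229 and 263.

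Thinning members to 5000 UMIs kept 330 and 140 cells and left out every low-UMI member. High-UMI members were 255 and 97 of the cells kept. Among these kept cells, 56 of 2259 genes had a variance of at least 2 times the mean in both libraries. The 15 most variable were PTMA, AKAP12, IGF2, VIM, HMGB1, MT-CO3, VPREB3, HMGB2, DHDDS, MT-CO2, MT-ATP6, TUBA1B, STMN1, H2AZ1 and PAX5. AKAP12 had a mean of 1.14 and 2.82 UMIs per thinned cell and a variance 6.004 and 9.65 times the mean. IGF2, insulin-like growth factor 2, had a mean of 0.936 and 0.243 and a variance 9.14 and 5.99 times the mean. Thinned to 2000 UMIs, 806 and 502 members remained, 31 of 1082 genes met the criterion, and AKAP12 led, followed by PTMA and the class II genes DLA-DRA and HLA-DQB2. Across those 2000-UMI cells, the Spearman correlation of AKAP12 with VPREB1 was 0.56 and 0.47, that of PAX5 with CD34 was -0.35 and -0.23, and that of AKAP12 with RAG1 was 0.41 and 0.31. At 5000 UMIs, where no low-UMI member was kept, the same 3 correlations were 0.41 and 0.55, -0.42 and -0.50, and 0.14 and 0.21. The cells of a correlation share a library and VPREB1 was selected on.

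Members of both sorted libraries differed in a group of early response genes. Of 4478 genes, 34 (0.759%) were at least 2-fold higher in library 2 and 105 (2.34%) at least 2-fold lower, with 1 library per dog and no test. Of 10 immediate early and heat shock genes with at least 20 CPM in either library, 7 were lower in library 2 and none was higher. ATF3, a stress-induced transcription factor gene, was at 99.6 CPM in library 1 and 3.48 in library 2, and KLF6 at 537 and 125. In the same-limit cells of whole marrows 2 and 3, the unsorted partners by library name, KLF6 was at 586 and 131 CPM, while FOS, FOSB and ATF3 rested on 3 UMIs or fewer and were not compared. FCRLA and VIM were at least 2-fold higher in library 2, FCRLA, an Fc receptor-like gene of B cells, at 10.1 and 58.1 CPM. CD34 was at 643 CPM in library 1 and 352 in library 2, and PSAT1 at 237 and 90.4.

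The same limits in the unsorted libraries found 119, 30 and 139 cells in whole marrows 1, 2 and 3, or 1.63%, 0.654% and 3.20% of kept cells. The mean share was 20.8% ± 7.82 in sorted (SD, n = 2) and 1.83% ± 1.28 in unsorted libraries (SD, n = 3), a difference of 19.0 percentage points (exact two-sided permutation p = 0.1, the smallest that the 10 splits allow). The splits take the libraries as independent, although marrows 2 and 3 each gave a sorted and an unsorted library. Both sorted libraries were above all 3 unsorted ones. High-UMI cells made up 20.5% and 16.8% of the sorted members and 1.68%, 10.0% and 5.04% of the unsorted cells, given without a test because the bound was chosen after the distribution was seen. Cells with a CD34 UMI made up 54.5% and 44.6% of the sorted members and 31.1%, 30.0% and 7.19% of the unsorted cells. No test is given for these shares, because the cells were sorted on CD34. With cells thinned to 2000 UMIs the CD34 shares were 50.1% and 31.7% in sorted and 29.6%, 53.8% (7 of 13 cells) and 6.45% in unsorted libraries, and the groups overlapped.

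Levels in the sorted and unsorted cells within the same limits were tested. The VPREB1 limit met different cells in them: those with 3 or 4 VPREB1 UMIs were 69 of 139 in whole marrow 3, with a median of 1727 UMIs and PAX5 at 2413 CPM, against 27 and 15 of the sorted members. With edgeR's quasi-likelihood test on summed UMIs, 99 of 4125 genes passed a Benjamini-Hochberg adjusted p of 0.05, of which 13 (0.315%) were higher and 86 (2.08%) lower in sorted cells; 687 had an unadjusted p under 0.05. The libraries of a dog are not independent, and with the marrow as a replicate block (marrows 2 and 3 only) edgeR called 354 of 7160 genes, 123 higher and 231 lower. Leaving out called doublets left 27 calls, and cells of at most 4000 UMIs, an alternative chosen after the data were seen, gave 26.

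Sorted members held RAG1 at 118 and 79.3 CPM, and the gated cells of whole marrows 1, 2 and 3 held it at 294, 303 and 282. Every unsorted library was above both sorted ones. The log2 fold change, sorted minus unsorted, was -1.36 ± 0.26 (SE) with an edgeR Benjamini-Hochberg adjusted p of 0.0371. RAG1 was the single call among 12 tested genes of its recombination list. In cells of at most 4000 UMIs RAG1 was at 299 and 176 CPM in sorted and 380, 506 and 392 in unsorted libraries, and its log2 fold change was -0.62 (edgeR adjusted p = 0.490). Without called doublets its edgeR adjusted p was 0.0760. Over 17 alternatives the edgeR or DESeq2 adjusted p of RAG1 ran from 0.000425 to 0.586, and 6 were under 0.05.

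IRF4, a factor of pre-B and plasma cells, was the single call among 21 tested B-lineage transcription factors. It was at 3.60 and 17.4 CPM in sorted and 148, 209 and 429 in unsorted libraries, with a log2 fold change of -4.58 ± 0.72 and an edgeR adjusted p of 0.0150. In cells of at most 4000 UMIs the IRF4 difference was -5.35 (edgeR adjusted p = 0.00435), and without called doublets its adjusted p was 0.0760, within a range over alternatives of 1.15e-34 to 0.717. Among cells with a CD34 UMI, where whole marrow 1 was the single unsorted library, the IRF4 difference turned to 6.60 (edgeR adjusted p = 0.717). IGKC, the kappa light chain constant gene, was at 4.86 and 2.78 CPM in sorted and 33.0, 94.1 and 621 in unsorted libraries (edgeR adjusted p = 0.0394; 0.177 in cells of at most 4000 UMIs, and up to 0.9998 over alternatives). GADD45A, a stress and DNA damage response gene named here after its values were seen, was at 185 and 228 CPM against 983, 1067 and 3346 (edgeR adjusted p = 0.0359; 0.117 without called doublets, 0.129 in cells of at most 4000 UMIs, and under 0.05 in 7 of 17 alternatives, up to 0.699). All these genes were lower in each sorted library than in each unsorted one.

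Whole marrow 3 stood apart among the unsorted libraries. DNTT was at 610 CPM in its cells, against 2759 and 2396 in marrows 1 and 2, PAX5 at 2318 against 964 and 1412, and its median cell held 5 VPREB1 UMIs, against 21 and 12. Without marrow 3 edgeR called 68 genes.

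The genes higher in sorted cells, by the rule, were RARRES2, TNFSF13B, LGR4, DCTPP1, ORC6, DNPH1, MACROH2A1, FBL, PPP1R14B and GPATCH4. RARRES2, which encodes chemerin, was at 71.6 and 65.1 CPM in sorted libraries, with 0 UMIs in the 3 unsorted ones, and so at least 17.7-fold higher against 3 UMIs over that group. Within sorted members it was at 122 and 127 CPM in the high-UMI range and at 3.80 and 3.78 in the low-UMI range. FBL, the nucleolar methyltransferase fibrillarin, was at 335 and 366 CPM against 125, 115 and 175, a log2 fold change of 1.495 ± 0.24 (edgeR adjusted p = 0.0151). In cells of at most 4000 UMIs the FBL difference was 0.53 (edgeR adjusted p = 0.611), the highest over alternatives that began at 2.13e-05. MACROH2A1, a histone variant gene, was at 176 and 169 CPM against 59.4, 94.1 and 60.1 (edgeR adjusted p = 0.0310; 0.0760 without called doublets, 0.288 in cells of at most 4000 UMIs, and under 0.05 in 7 of 17 alternatives, up to 0.531).

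Most of the 10 leading genes on the lower side encode neutrophil proteins: CAMP, PGLYRP1, S100A12, MMP9, MMP8, TCN1, PADI3, LCN2, CD177 and S100P. S100A12 was at 0.899 and 0.696 CPM in sorted and 11876, 7197 and 16394 in unsorted libraries (edgeR adjusted p = 3.15e-05). CAMP had 0 UMIs in sorted members and was at least 15875-fold lower there against 3 UMIs over the group. The 9 markers of mature neutrophils summed to 175 and 187 CPM in sorted members, with CAMP, MMP8, LCN2, PGLYRP1 and CD177 at 0 in both libraries, and to 31042, 24206 and 47603 CPM in the unsorted cells. The 9 erythroid markers summed to 5.75 and 20.9 CPM in sorted members and 228, 199 and 320 in unsorted cells. These markers move with the sort, and their part in the differences of the B-lineage genes was not tested.

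**Figure D4:**
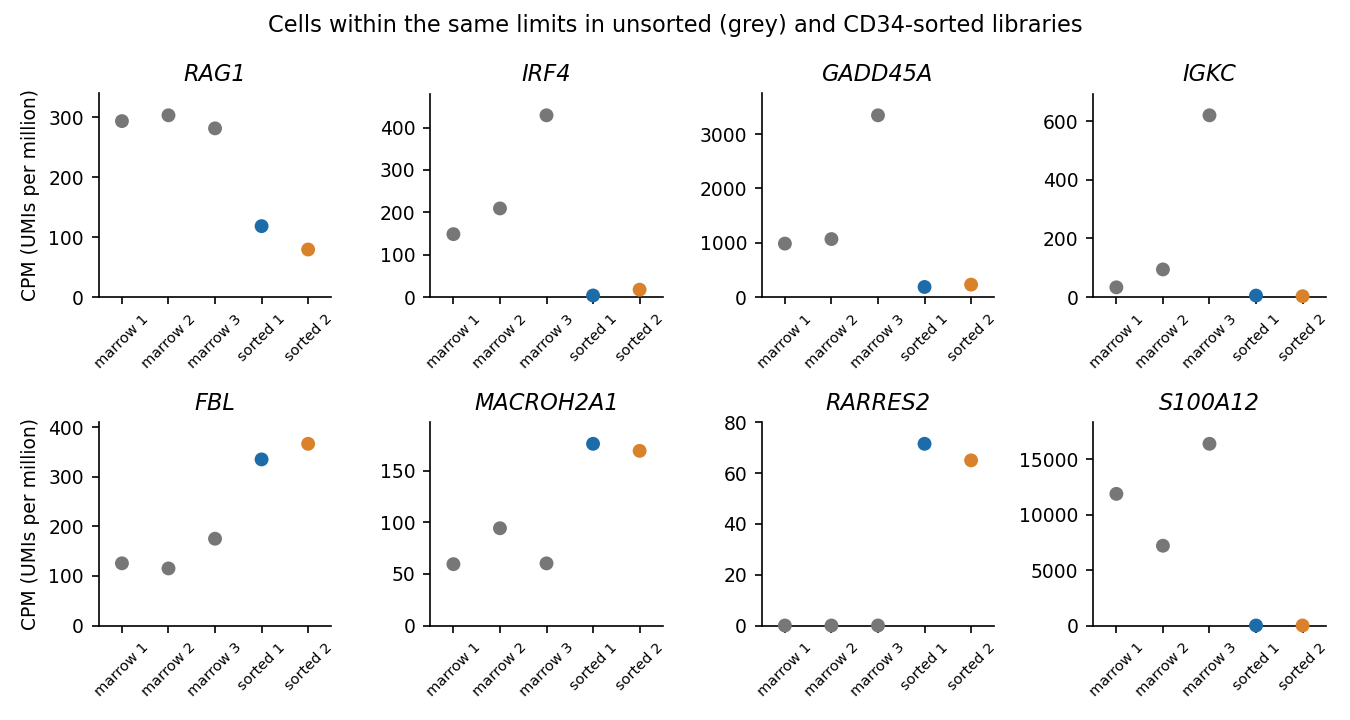
CPM (vertical axis, from 0) of 8 genes in cells within the same limits; each point is 1 library, grey for whole marrows 1 to 3 and coloured for CD34-sorted libraries 1 and 2. RAG1, IRF4, GADD45A, IGKC and the neutrophil gene S100A12 are higher in each unsorted library, and FBL, MACROH2A1 and RARRES2 in each sorted one.

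V(D)J recombination, transcription factors, adhesion and later B-cell genes held 1 call each between sorted and unsorted cells. MHC class II gave 0 of 8, DNA replication 0 of 16 with a median log2 fold of 0.91, and pre-B receptor genes 0 of 9 with a median of -0.57, beside a median of -0.01 over all genes. AKAP12 was at 1127 and 2032 CPM in sorted and 3630, 1778 and 2583 in unsorted libraries, overlapping between the groups, and DPEP1 was at 769 and 787 against 983, 680 and 134.

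Markers of other cells summed to different levels in sorted members. The highest sum was that of 8 plasmacytoid dendritic markers, at 875 and 780 CPM in members against 329 and 323 in VPREB1-negative cells. It was carried by TCF4 and BCL11A, which are also in the list of B-lineage transcription factors, TCF4 at 566 and 415 CPM and BCL11A at 148 and 169. The receptor gene IL3RA of that list was at 0.540 and 0 CPM. The 5 neutrophil progenitor markers without MPO summed to 102 and 163 CPM in members. Markers of endothelial or stromal cells summed to 0.360 and 0 CPM and of megakaryocytes to 1.98 and 6.96. Mature B-cell markers summed to 68.5 and 133 CPM, with MS4A1 at 0.899 and 1.74, and plasma cell markers to 194 and 135. The 9 T or NK markers found in the files summed to 165 and 220 CPM, led in library 1 by CD2, at 97.8 and 63.0, and in library 2 by CD3D, at 52.5 and 136. CD2 was at 149 and 110 CPM in high-UMI and 16.8 and 14.2 in low-UMI members, and CD3D at 17.8 and 77.5 against 107 and 190. Cells of whole marrow with at least 3 MS4A1 UMIs and no VPREB1, later B cells of which 9, 11 and 31 were found, held 0, 0 and 5.90 CPM of RAG1 and 183, 486 and 673 of PAX5.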

How the data were processed

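The authors deposited filtered matrices of raw counts (whole UMIs, not normalized) over 20257 features, 4432 of them without a symbol. The file headers name Cell Ranger 7.0.1. The submitters' processing notes name version 7.1.0 and CanFam 3.1, and which annotation release was used is not given. Counts were summed per library and group of cells. edgeR 4.0.16 (TMM, filterByExpr, robust quasi-likelihood fit, sums of at least 20 cells, 3 residual degrees of freedom) compared 2 sorted with 3 unsorted libraries; DESeq2 1.42.0, other scalings, filters, thinning, doublet removal and leaving out each library were alternatives. On simulated data for this comparison, over 3786 genes, 99% of 4-fold and 100% of 8-fold changes were recovered and 3.86% of calls were false. The simulated libraries were independent, and changes were planted only in genes at or above the median count. Libraries of a shared dog and a surplus of neutrophil transcripts in the unsorted group were not simulated, so these rates need not hold for the real comparison. Calls in descriptions are folds of at least 2 in both libraries with at least 20 CPM in the higher group, with 1 CPM added before logs. Doublets were called at 0.8% per 1000 cells and kept unless stated.

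The members, gene lists and tests were chosen with earlier results of these data known. Named genes are the 10 of largest change in each direction (20 leading genes, 15 most variable, list members by count), without the genes of the limits. Between sorted and unsorted cells they also had to pass 0.05 with no overlap. Sorted and unsorted libraries of marrows 2 and 3 come from the same dogs per the labels' protocols; over 4127 genes the differences of the sorted and of the unsorted pair correlated at 0.22. Separate dogs are the replicates. Intervals and limits of 3 counts cover counting error only. Results for some genes are not reported here.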

Additional observations from a re-analysis of the deposited data

How the results depend on the processing

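Of the 99 genes called between sorted and unsorted cells, RLE factors kept 89 calls. DESeq2 called 189, no low-count filter 519, VPREB1 of at least 5 UMIs 51, doublet removal 27, cells with a CD34 UMI 168 (of unsorted libraries only marrow 1 had enough), thinning to 2000 UMIs 41, and a mitochondrial limit of 5% 49 (both without marrow 2). The replicate block, a paired fit over marrows 2 and 3 with 1 residual degree of freedom, called 354, with 93 of the 99 among them. Leaving out 1 library gave 57 (without CD34-sorted 1) to 197 (without whole marrow 1). Of alternatives chosen after seeing the data, cells of at most 4000 UMIs gave 26, with 21 of the 99 among them. The leave-one-out fit of these cells without marrow 3 gave 44, with 35 of the 99. VPREB1 of at least 10 UMIs gave 17, all among the 99. Thinning moved calls to 0 higher and 41 lower. With a CD34 UMI the log2 fold changes of IRF4 and LY86 turned to 6.60 and 6.39; in cells of at most 4000 UMIs that of DKC1 turned to -0.12, or -0.28 without marrow 3. None of these 4 values passed 0.05, and the causes were not tested. The share difference stayed above 0 in each alternative, from 13.5 to 24.5 points over single libraries left out. At 1.5-fold, 828 genes separated members from cycling and 899 from VPREB1-negative cells, against 375 and 441; members of at most 4000 UMIs gave 1018. Thinning to 2000 UMIs, which kept part of the low-UMI members, gave 31 variable genes against 56. Whole marrow 2 held 30 cells and 95596 UMIs, and 66 genes were called without it; what its depth limits was not tested.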
